A study of Mus musculus with 10 samples.

Results

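REST binding was examined at 38 mouse genes for voltage-gated, calcium-activated and inward-rectifier potassium channels, their auxiliary subunits and the related HCN channels. The genes were taken from a fixed list of symbols, chosen with earlier results of these data known. All 38 were found among 26089 curated RefSeq genes on chromosomes 1 to 19 and X. The binding data were chromatin immunoprecipitation and sequencing (ChIP-seq) of bulk cortex with an antibody against the C-terminal part of REST. One group was wild-type (WT) female mice at 11 months of age, and the other was female 3xTg mice of the same age. 3xTg mice, of mixed strain background, are used to model Alzheimer's disease and have transgenes for Swedish mutant human APP and mutant human tau together with a PS1 knock-in mutation. Each genotype had 4 replicates, each a pool of 4 cortices, and 1 input library of chromatin without immunoprecipitation. A single list of peaks was deposited for each genotype, built from its 4 replicates together, so these lists give no replicate spread for any value at a gene, and no difference between WT and 3xTg was tested here.

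REST, also called NRSF, is a zinc finger repressor that binds a DNA element named RE1 and recruits corepressor complexes that remove active histone marks. Many genes that carry RE1 encode ion channels, synaptic proteins and other components of neuronal excitability, and in cells that are not neurons REST keeps such genes silent. Potassium channels set the resting potential of a neuron, end its action potentials and limit how often it fires. Because the tissue was whole cortex, neurons and glia contributed to the same peaks, and a site bound in few cells could not be told apart from a site bound weakly in many.

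A peak was assigned to a gene where it overlapped the gene body or lay within 5 kb of one of its start sites. In the WT list 13 of the 38 potassium channel genes had a peak, or 34.2% with a 95% Wilson interval of 21.2 to 50.1%, against 9.3% of all RefSeq genes. In the 3xTg list 16 of 38 had a peak, or 42.1% with an interval of 27.9 to 57.8%, against 14.2% of all genes. The intervals cover counting over genes only. Peaks of both lists were present at 12 genes, the WT list alone marked Hcn3, the 3xTg list alone marked Kcnab2, Kcnc1, Kcnd2 and Kcnma1, and 21 genes had no peak in either list. Over all 26089 RefSeq genes, 2030 had peaks of both lists, 396 of the WT list alone, 1676 of the 3xTg list alone and 21987 of neither.

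The potassium channel genes were long, with a median length of 76.2 kb against 13.5 kb for all genes, and long genes held peaks more often. Over all RefSeq genes weighted to the length classes of the 38, 18.5% held a WT peak and 28.1% a 3xTg peak, which is between the plain background and the share of the members, and 28.1% is inside the members' interval for the 3xTg list. Of the 15 potassium channel genes over 200 kb, 8 held a WT peak and 10 a 3xTg peak, or 53.3% and 66.7%, where all genes of that length stood at 32.3% and 48.5%. Of the 13 between 10 and 50 kb, 5 held a peak in each list, or 38.5%, where all genes stood at 8.57% and 12.8%. In the other length classes the potassium channel genes were not above the background. None of the 5 genes up to 10 kb held a peak, where all genes stood at 5.38% in WT and 8.03% in 3xTg. Of the 5 between 50 and 200 kb none held a WT peak and 1, Kcnab2, held a 3xTg peak (20%), where all genes stood at 16.4% and 26.4%.

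**Figure D1:**
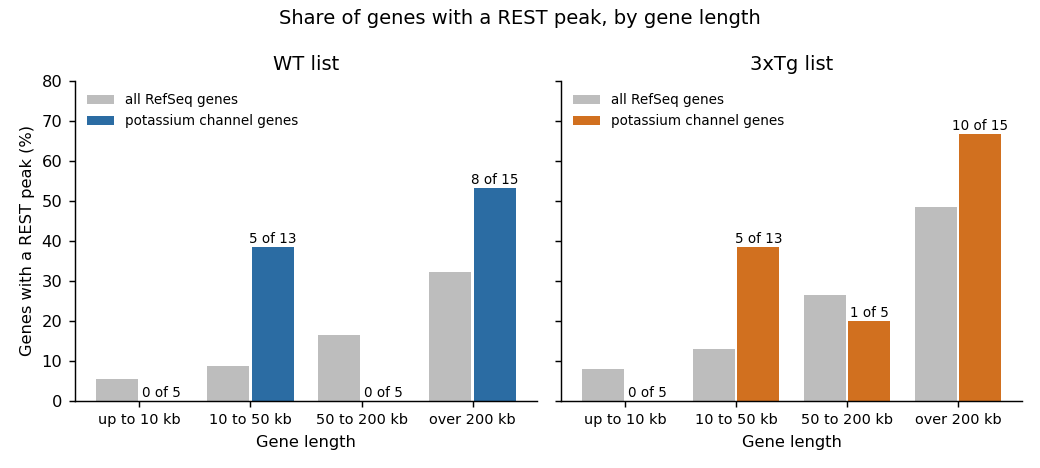
Percentage of genes with a REST peak in the gene or within 5 kb of a start site, by gene length, in the WT list (left) and the 3xTg list (right). Grey bars are all 26089 RefSeq genes and coloured bars the 38 potassium channel genes, with their counts above; the coloured bar is higher than the grey one for genes of 10 to 50 kb and over 200 kb in both lists.

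Binding close to a start site was less frequent. A peak lay within 5 kb of a start site at 4 of the 38 genes in the WT list, Kcnip2, Kcnh3, Hcn2 and Hcn3 (10.5%, interval 4.17 to 24.1%), against 6.72% of all genes. In the 3xTg list there were 6, Kcnab2, Kcnc1, Kcnip2, Kcnh3, Kcnj10 and Hcn2 (15.8%, interval 7.44 to 30.4%), against 9.87%. Within 1 kb the counts were 3 genes in the WT list (7.89%, against 5.32% of all genes) and 5 in the 3xTg list (13.2%, against 7.84%). At 5 kb the plain background share lay inside the interval of the members in both lists. For the whole gene it lay below the interval, but the length-weighted share of 28.1% lay inside that of the 3xTg list. These intervals are descriptions, since the genes were chosen with earlier results of these data known. Most peaks at these genes were in introns: summits less than 1 kb away from a start site made up 1 of 16 WT peaks (6.25%) and 3 of 23 3xTg peaks (13.0%), where the shares over all peaks of the lists were 36.3% and 30.6%.

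The same counts were made for other channel genes, and no difference from the 38 was tested. Of the 50 remaining genes whose symbols start with Kcn or Hcn, two-pore channels left aside, 7 held a WT peak (14%) and 8 a 3xTg peak (16%), beside 11.1% and 17.04% for all RefSeq genes of matching lengths. Of the 14 two-pore (Kcnk) genes the counts were 2 and 3, or 14.3% and 21.4%, beside 9.90% and 15.3%. Of the 44 sodium and calcium channel genes (Scn and Cacn) they were 8 and 13, or 18.2% and 29.5%, beside 16.4% and 25.4%. Close to a start site the 38 genes did not stand above these sets throughout. Within 5 kb of a start the 3xTg share was 18.2% for the sodium and calcium channel genes, against 15.8% for the 38. In WT the 38 stood just above the 50 Kcn and Hcn genes, at 10.5% against 10%.

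The deposited lists did not begin at the same level, which bears on every count above. Fold enrichment is the height of the ChIP signal over the local background at a peak. Its lowest value was 6.003 among 3006 WT peaks and 8.50 among 5077 3xTg peaks. At the potassium channel genes 10 of the 16 WT peaks lay under the lowest 3xTg value, as did 2056 of all 3006 WT peaks. With the 3xTg minimum applied to both lists, 6 of the 38 genes kept a WT peak (15.8%, against 3.01% of all genes) and the 16 with a 3xTg peak were unchanged. With the 3xTg list shortened to its 3006 strongest peaks, 11 genes held a 3xTg peak (28.9%, against 8.82% of all genes).

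The 16 WT peaks had a median fold enrichment of 7.14, with a range of 6.43 to 13.4, and the median over all WT peaks was 7.28. The 23 3xTg peaks had a median of 10.3, with a range of 8.80 to 28.0, and the median over all 3xTg peaks was 10.8. The potassium channel peaks were thus close to the middle of both lists in height. A total of 14 WT peaks overlapped a 3xTg peak (87.5%, against 83.3% of all WT peaks), and the same 14 sites made up 60.9% of the 3xTg peaks at these genes, against 49.0% of all. There were 2 peaks of the WT list alone and 9 of the 3xTg list alone.

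**Figure D2:**
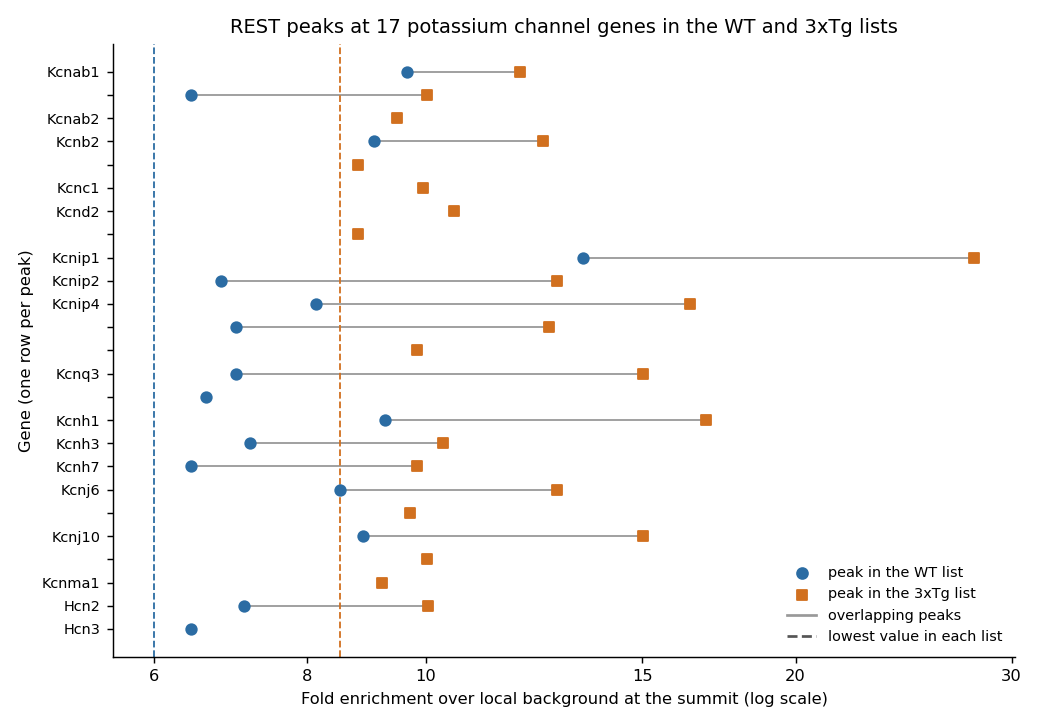
Fold enrichment over background (log scale) of every REST peak at the 17 potassium channel genes with a peak, with one row per peak; circles are the WT list, squares the 3xTg list, grey lines join overlapping peaks and dashed lines mark the lowest value in each list. Kcnip1 stands highest in both lists at 13.4 and 28.0, and both peaks found in the WT list alone lie left of the 3xTg minimum of 8.50.

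The pore-forming subunits of the voltage-gated channels are described first, by family. The Kv1 (shaker) family comprises, among the listed genes, Kcna1 to Kcna6, some of which give low-threshold or delayed-rectifier currents in axons. None of its 6 genes had a peak, where 6.44% of all genes at these lengths held a WT peak and 9.63% a 3xTg peak, so a count of 0 was near the background. These are short genes of 1.97 to 32.3 kb, and all but Kcna4 sit in clusters. The peak nearest to the start of Kcna1, Kcna5 and Kcna6 on chromosome 6 was 56.4, 167 and 37.9 kb away in the WT list, and the peak nearest to Kcna2 and Kcna3 on chromosome 3 was 49.0 and 114 kb away. Kcna4 was farther from any peak, at 1559 kb in both lists.

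Kcnb2, the gene for a delayed-rectifier subunit of the Kv2 (shab) family, held 1 site found in both lists. That site lay 197 kb into the gene, in intron 2, with a fold enrichment of 9.08 in WT and 12.5 in 3xTg. A weaker site 158 kb from the start, in the same intron, was present only in the 3xTg list at 8.80, close to its minimum.

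Of the 3 Kv3 (shaw) genes, whose channels repolarise fast-spiking neurons quickly, Kcnc1 had a peak and Kcnc2 and Kcnc4 had none. At these lengths 11.2% of all genes held a WT peak and 17.4% a 3xTg peak. The Kcnc1 peak was in the 3xTg list alone at 9.94, with its summit 398 bases from the start site. It lay in a promoter where the 300 bases around the summit were 74.0% G and C, against a median of 58.0% over all promoter peaks of the 3xTg list. The ratio of CpG found to CpG expected from the C and G content was 0.757, close to the median of 0.746 over the same promoter peaks. The nearest WT peak was 1030 kb away.

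Kcnd2 encodes the main subunit of the A-type current in dendrites and belongs to the Kv4 (shal) family. Its peaks were in the 3xTg list alone, at 10.5 and 8.80, and both were in intron 1, 216 and 336 kb from the start. Kcnd3, the other Kv4 gene listed, had no peak and was 176 kb from the nearest one in each list. All genes at the lengths of these 2 stood at 32.3% (WT) and 48.5% (3xTg).

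Of the 6 genes for auxiliary beta and KChIP subunits, 4 held a WT peak and 5 a 3xTg peak, where all genes at these lengths, 23.7 to 1135 kb, stood at 23.0% and 35.2%. Kcnab1 and Kcnab2 encode cytoplasmic beta subunits that bind Kv1 channels. Kcnab1 had 2 sites found in both lists, 1 in intron 1 at 9.64 in WT and 11.9 in 3xTg, and 1 in intron 8 at 6.43 and 10.01. The intron 1 site also overlapped the gene A330015K06Rik, and the intron 8 site the gene A730090N16Rik. Kcnab2 had a promoter peak in the 3xTg list alone at 9.47, with its summit 22 bases from a start site. That peak also overlapped Nphp4, a gene that runs the other way, and lay within 5 kb of its start. It could not be ascribed to either gene.

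The KChIP genes encode calcium-binding proteins that carry Kv4 channels to the membrane, and 3 of the 4 held peaks in both lists. Shares of all genes at their lengths were 22.4% (WT) and 34.1% (3xTg). Kcnip1 had the strongest peak of the whole set, in intron 1 and 59.99 kb from the start at the 3xTg summit. Its fold enrichment was 13.4 in WT, rank 265 of 3006, and 28.0 in 3xTg, rank 177 of 5077. Kcnip4, the longest gene of the set at 1135 kb, had 3 sites in intron 1. They stood at 8.13 in WT and 16.4 in 3xTg, at 6.997 and 12.6, and at 9.83 in the 3xTg list alone. Kcnip2 had a site at 6.81 and 12.8 in intron 1, and the peak reached to within 1.17 kb of an internal start site in WT and 0.940 kb in 3xTg. Kcnip3, whose product is also known as DREAM or calsenilin, had no peak in either list, and the nearest was 62.3 kb from a start in WT and 62.2 kb in 3xTg.

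Kcnq3 encodes a subunit of the M current, which slows repeated firing. It was the 1 of 3 Kv7 genes with a peak, beside 32.3% (WT) and 48.5% (3xTg) of all genes at these lengths. The site found in both lists lay 114 kb into the gene at 6.997 in WT and 15.0 in 3xTg, the largest ratio of the set. A second site, 47.2 kb from the start, was in the WT list alone at 6.62. Kcnq1 and Kcnq5 had none.

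Of the 5 genes of the EAG group, 3 held a peak in both lists, beside 22.8% (WT) and 34.2% (3xTg) of all genes at these lengths. Kcnh1 had a site in intron 9 at 9.27 in WT and 16.9 in 3xTg. Kcnh3, expressed mainly in forebrain neurons, had a site about 1 kb upstream of its start at 7.19 and 10.3. Kcnh7 had a site in intron 2 at 6.43 and 9.84. Kcnh5 had none. Kcnh2, which encodes the ERG channel known for cardiac repolarisation, was the gene nearest to the limit of 5 kb from outside: a peak of 12.1 in WT and 13.6 in 3xTg lay 5.83 and 5.81 kb from its start, and counting it would have added a gene to each list. Of the genes inside the limit, Kcnj10 had the most distant peak, 1.37 kb from its start in the 3xTg list.

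The inward rectifiers hold neurons and glia near the resting potential. A peak was present in each list at 2 of the 5 listed, beside 14.2% (WT) and 21.7% (3xTg) of all genes at these lengths. Kcnj10 encodes the channel by which astrocytes take up potassium, and it held a site in intron 1, 23.8 kb from the start, at 8.89 in WT and 15.0 in 3xTg. A second site 1.76 kb from the start was in the 3xTg list alone at 10.01. Kcnj9 is the neighbour of Kcnj10 on chromosome 1 and had no peak of its own, with the second Kcnj10 site as its nearest at 13.3 kb. Kcnj6 encodes a G protein-gated subunit of the GIRK type. It held a site in intron 1 at 8.51 and 12.8 and another in intron 2 in the 3xTg list alone at 9.70. Kcnj3 and Kcnj4 had none.

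Among the calcium-activated channels, Kcnma1, the gene for the large-conductance BK channel, had a peak in intron 1 in the 3xTg list alone at 9.21. The small-conductance channel genes Kcnn1, Kcnn2 and Kcnn3 had none. For the lengths of these 4 genes the shares over all genes were 22.4% (WT) and 34.1% (3xTg). In the HCN group, whose channels open on hyperpolarisation and pass sodium as well as potassium, Hcn2 had a peak in intron 1 at 7.10 in WT and 10.05 in 3xTg, 1.51 kb from the start. Hcn3 had a promoter peak in the WT list alone at 6.43. Hcn4 had no peak. The HCN counts were thus 2 of 3 genes in WT and 1 in 3xTg, beside 8.57% and 12.8% of all genes at these lengths.

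**Figure D3:**
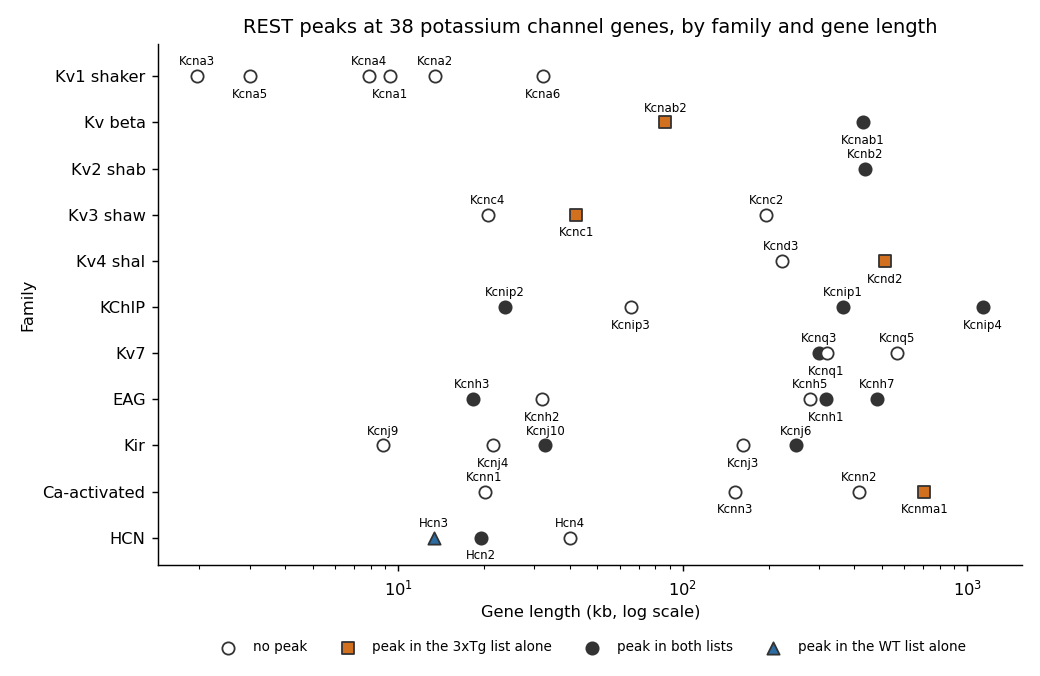
Length of the 38 potassium channel genes (kb, log scale) by family, with each symbol giving the lists in which the gene held a REST peak. Filled circles (both lists) stand mostly to the right among genes over 200 kb, with Kcnh3, Hcn2, Kcnip2 and Kcnj10 as the filled circles between 10 and 50 kb, and all 6 Kv1 genes are open circles.

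At 8 of the 14 sites present in both lists the WT value lay under the lowest 3xTg value, so the 3xTg value had to be the higher there. The other 6, at Kcnip1, Kcnab1, Kcnh1, Kcnb2, Kcnj10 and Kcnj6, also stood higher in the 3xTg list, with a median ratio of 1.60, beside 1.71 for the 945 overlapping peaks of the genome above that limit, of which 933 had a ratio over 1. Over all 14 the ratio of 3xTg to WT fold enrichment had a median of 1.62 and ran from 1.24 at the stronger Kcnab1 site to 2.15 at Kcnq3. Over all 2504 WT peaks that overlapped a 3xTg peak the median was 1.70, and 2492 of them were above 1. The potassium channel sites lay on both sides of the genome-wide median, 6 of the 14 above it. Relative to it, Kcnq3 (2.15), Kcnip1 (2.08) and the stronger Kcnip4 site (2.02) stood high, above 86.7, 83.4 and 80.1% of all overlapping peaks. The sites at Hcn2 (1.41), Kcnb2 (1.37) and Kcnab1 (1.24) stood low, above 16.7, 13.2 and 4.79%. The summits of the paired peaks lay 54 bases apart at the median, against 33 over all overlapping peaks. At the stronger Kcnab1 site they lay 530 bases apart, so its ratio of 1.24 compares heights at different positions.

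**Figure D4:**
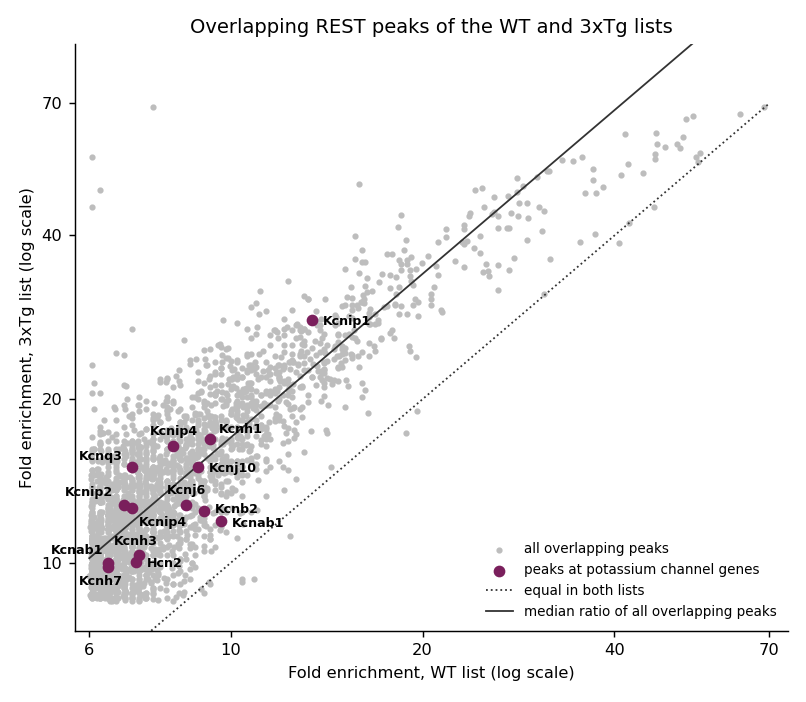
Fold enrichment in the WT list (x) and the 3xTg list (y), both on log scales, of 2504 WT peaks that overlapped a 3xTg peak, with the 14 sites at potassium channel genes in purple. The dotted line marks equal values and the solid line the median ratio of 1.70; the purple points lie on both sides of the solid line and above the dotted one, as the limits of the lists require at 8 of the 14.

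The 9 peaks of the 3xTg list alone ran from 8.80 to 10.5, with a median of 9.70 against 9.67 for all peaks of that kind, and the 14 sites found in both lists had a 3xTg median of 12.7. Both peaks of the WT list alone, at Kcnq3 (6.62) and Hcn3 (6.43), lay under the lowest value of the 3xTg list, as did 497 of the 502 such peaks in the genome. A 3xTg value of that height would not have been listed, so the lists cannot tell whether binding at Hcn3 was lower in 3xTg cortex. WT peaks as low as that of Hcn3 did have a 3xTg counterpart at Kcnh7 (9.84) and the weaker Kcnab1 site (10.01). Fold enrichment took few distinct values at the low end, and the peaks at Hcn3, Kcnh7 and the weaker Kcnab1 site shared the value 6.43.

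The RE1 motif has 20 bases, made of the half-sites GCTGTCC and GGTGCTGA. It was searched on both strands, in the 300 bases around each summit, with at most 5 mismatches. A match was found in 2 of the 16 WT peaks, at Hcn2 and Hcn3 (12.5%, interval 3.50 to 36.02%), against 6.02% of all WT peaks and 0.834% of windows 10 kb downstream. In the 3xTg list 1 of 23 peaks had a match, at Hcn2 (4.35%, interval 0.772 to 20.99%), against 4.08% of all peaks and 0.593% of the windows downstream. A search of whole peaks added Kcnip2 in both lists and Kcnc1 in the 3xTg list. The Kcnc1 match had 5 mismatches and lay 547 bases from the summit. Whole peaks are wider than the window, with a median of 829 bases for the 3xTg peaks at these genes. The share of all peaks with a match was not counted for whole peaks. Most peaks at these genes, the strong Kcnip1 peak included, therefore had no match in the searched letters.

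The matches under the peaks are shown because they tie a site to the known element. Each is written on the strand of the motif (mm10, GRCm38), with letters that differ from the motif in capitals. The Hcn2 site is chr10:79718161-79718180 on the minus strand, with 2 mismatches, 30 bases from the WT summit and 28 from the 3xTg summit. The Kcnip2 site is chr19:45813956-45813975 on the minus strand, with 3 mismatches, and lies 333 and 344 bases from the summits, at the side of the peaks. The Hcn3 site is chr3:89159338-89159357 on the minus strand, with 4 mismatches, 43 bases from the WT summit and inside the promoter.
Hcn2: ggagctgtccGtggtCctga
Kcnip2: gTcgTtgtccaCggtgctga
Hcn3: TTTgctgtccGtggtgctga

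Around the Hcn2 and Hcn3 summits, 100 bases of the plus strand of the reference show the match in capitals in its setting. The windows are chr10:79718092-79718191 in intron 1 of Hcn2 and chr3:89159330-89159429 in the promoter of Hcn3.
Hcn2 summit: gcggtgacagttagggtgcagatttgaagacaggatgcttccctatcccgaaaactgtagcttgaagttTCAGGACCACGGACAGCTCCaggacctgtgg
Hcn3 summit: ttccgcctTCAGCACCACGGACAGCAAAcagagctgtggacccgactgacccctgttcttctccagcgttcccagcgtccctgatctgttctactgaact
In both the half-site GCTGTCC was intact on the minus strand. At Hcn3 the other half-site was intact too, with 2 bases between them, and the mismatches were outside the half-sites.

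At Kcnc1 both half-sites were found whole within 50 bases of the 3xTg summit, but on opposite strands. The 100 bases at chr7:46396816-46396915 of the plus strand show GCTGTCC and the reverse complement of GGTGCTGA in capitals, 2 bases apart.
Kcnc1 summit: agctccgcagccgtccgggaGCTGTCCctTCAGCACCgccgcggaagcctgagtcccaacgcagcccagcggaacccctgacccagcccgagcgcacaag
A pair of half-sites on opposite strands within 20 bases of each other was present in 15 of all 5077 3xTg windows (0.295%) and in 1 of 5058 windows downstream (0.0198%). In the WT list 11 of 3006 windows had one (0.366%), none of them at a potassium channel gene. The pattern at Kcnc1 was noticed in the printed letters and then counted. It is a description of letters, and the binding of REST to such a pair was not tested.

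The promoter peak with the highest 3xTg fold enrichment, at Kcnh3, had neither an RE1 match nor a whole half-site around its summit. The 100 bases at chr15:99223566-99223665 of the plus strand, upstream of the start, are shown for contrast with Kcnc1 and have 3 CpG dinucleotides, in capitals, where the Kcnc1 stretch has 10.
Kcnh3 summit: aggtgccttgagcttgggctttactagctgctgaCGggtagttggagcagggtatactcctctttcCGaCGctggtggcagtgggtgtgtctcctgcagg

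The sequence under the strongest peak held no RE1 match but had a stretch that occurred in 2 copies within the printed window. In the 300 bases around the 3xTg summit of Kcnip1, 48.8% of bases equalled the base 42 positions downstream, under the limit of 70% set for a tandem repeat. The window chr11:33933154-33933253 shows a run of 29 bases present in 2 copies, in capitals. The second copy ends at the edge of the window, so the full length of the run and the number of copies beyond it were not counted.
Kcnip1 summit: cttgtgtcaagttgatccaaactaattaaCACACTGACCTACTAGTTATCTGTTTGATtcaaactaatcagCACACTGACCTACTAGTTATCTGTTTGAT
The stronger Kcnj6 site was a tandem repeat of 30 bases, and 96.3% of bases around the 3xTg summit equalled the base 30 positions downstream. The window chr16:94959593-94959682 shows 3 units, with every other unit in capitals.
Kcnj6 summit: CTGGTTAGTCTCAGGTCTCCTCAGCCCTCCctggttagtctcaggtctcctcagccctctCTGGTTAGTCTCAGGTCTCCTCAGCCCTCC
By this measure, with a limit of 70% equal bases at any distance of 2 to 150 bases, 1 of 16 WT peaks and 1 of 23 3xTg peaks at potassium channel genes were tandem repeats, both at Kcnj6. Over all peaks the shares were 3.73% (WT) and 3.33% (3xTg), and in windows 10 kb downstream 0.434% and 0.415%. The weaker Kcnab1 site came next, with 63.2% and 60.5% at a distance of 4 bases. Reads of 75 bases cannot always be placed within such repeats, and the effect on the height of the Kcnj6 peak was not tested.

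Sites resembling RE1 were also sought along the whole of each gene and 5 kb on either side, whether or not a peak was there. There were 15 sites with at most 3 mismatches in 12 of the 38 genes. The share of all genes with such a site was not counted, and longer genes give more sequence to search, so the 12 cannot be read as many or few. Peaks of both lists covered 2 of them, at Hcn2 and Kcnip2, and 13 lay in no peak of either list. Over the genome 1214 such sites were found, of which 12.3% were in a WT peak and 14.4% in a 3xTg peak, and for the 780 in or near a RefSeq gene the shares were 14.2% and 17.1%. Coverage at the potassium channel genes, 13.3% in both lists, was close to these shares. Even among sites with 1 mismatch, 10 of 44 in the genome were in a WT peak and 13 in a 3xTg peak.

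The closest sites without a peak are given, since by letters alone they match RE1 as well as or better than the Hcn2 site. The Kcnh1 site, with 1 mismatch, is chr1:192457718-192457737 in intron 10, 35365 bases from the 3xTg peak of the gene. The others, with 2 mismatches each, are chr4:152424539-152424558 in intron 2 of Kcnab2, chr11:33787553-33787572 in intron 1 of Kcnip1, chr2:63186213-63186232 at 1.94 kb upstream of Kcnh7 and chr9:58841859-58841878 in intron 1 of Hcn4.
Kcnh1: ggagctgtccaGggtgctga
Kcnab2: ggagctgtccTGggtgctga
Kcnip1: ggcgctgAccatggtCctga
Kcnh7: ggagctAtccGtggtgctga
Hcn4: gAcActgtccatggtgctga
Each of Kcnh1, Kcnip1 and Kcnh7 held a peak in both lists, and in each the peak was elsewhere in the gene. Hcn4 had such a site in its first intron and no peak in either list. A site outside the lists can still be bound below their limits, and a level of binding at these sites was not measured here.

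**Figure D5:**
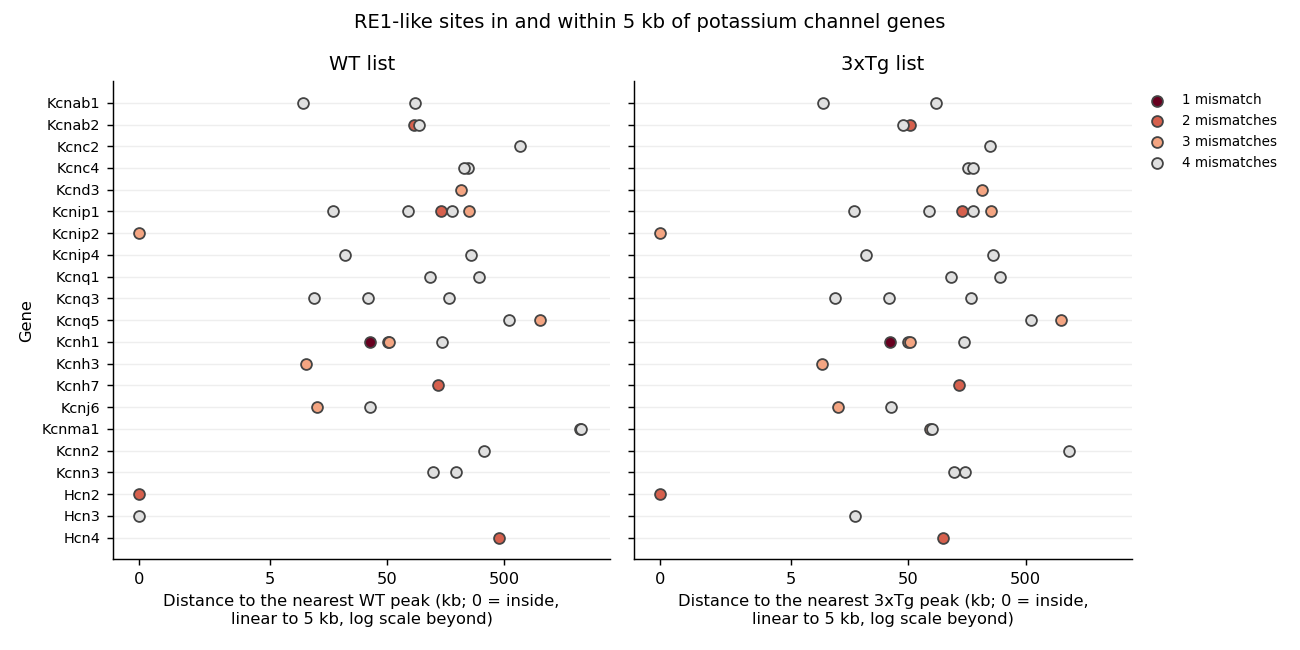
Distance (kb, linear to 5 kb and log scale beyond) from each RE1-like site with at most 4 mismatches to the nearest peak of the WT list (left) and the 3xTg list (right), for the 21 potassium channel genes with such a site. Sites at 0 lie inside a peak: Hcn2 and Kcnip2 in both panels and Hcn3 in the WT panel alone, while the Kcnh1 site with 1 mismatch lies 36055 bases from the nearest WT peak and 35365 from the nearest 3xTg peak.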

How the data were processed

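REST ChIP-seq reads were processed by the study. Per its methods, single-end reads of 75 bases were aligned to mm10 with STAR 2.7.0a, peaks were called with MACS 2.1.0, filtered at a fold enrichment over 5 and q under 0.01, and cleared of the ENCODE blacklist. The submitters' processing notes name BWA for replicates 1 and 2 and the inputs and STAR for replicates 3 and 4. The authors deposited 1 peak list per genotype, each combining 4 replicates. Each deposited peak has a score, a fold enrichment (a ratio to the local background), the −log10 of the p-value (not used here), the −log10 of the q-value and a summit. The study's own comparison of binding between genotypes over replicates was not used here. Read depth is not part of the lists, so the depth behind a peak is unknown here.

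All mice were female, and peaks called on chromosome Y (4 in WT, 9 in 3xTg) were removed. Genes and start sites were curated RefSeq transcripts of GRCm38. A peak was shared where it overlapped a peak of the other list by at least 1 base. The potassium channel genes, lists and alternatives were chosen with earlier results of these data known, so no test was made on them and shares are descriptions with 95% Wilson intervals. All 38 listed genes are accounted for, with a value for every peak at them. Sequences were chosen as the RE1 matches with the fewest mismatches and, after the letters were seen, the summits at Kcnc1, Kcnip1 and Kcnj6. Alternatives changed the distance, the limits on peaks, the list length, the overlap, the annotation and the RE1 search.

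Computations used Python 3.11.15 with numpy 2.4.6, scipy 1.17.1, pysam 0.24.0 and matplotlib 3.10.9. Tested on simulated data, the search recovered 300 of 300 planted RE1 sites, 60 of 60 gene assignments and 100 of 100 peak classes.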

Additional observations from a re-analysis of the deposited data

How the results depend on the processing

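Of 74 recomputed values, 39 were counted as near the reported one and 35 as moved. The first label was broad. It took in the share of genes with a 3xTg peak at 28.9% with the shortened 3xTg list and 31.6% at a fold enrichment over 10, against 42.1%. It also took in 13 peaks of the 3xTg list alone, against 9, at 50% overlap. Counting start sites alone in place of gene bodies lowered the share of potassium channel genes with a WT peak from 34.2% to 10.5% (5 kb) and 7.89% (1 kb), and that with a 3xTg peak from 42.1% to 15.8% and 13.2%. At 5 kb it left 3 sites found in both lists, 1 peak of the WT list alone and 3 of the 3xTg list alone. A fold enrichment over 10 left a WT peak at 2.63% of the genes (1.91% of all genes) and a 3xTg peak at 31.6% (9.41% of all), 1 site in both lists, 0 peaks of the WT list alone and 14 of the 3xTg list alone. The lowest 3xTg value applied to both lists, an alternative chosen after seeing the data, left 15.8% of genes with a WT peak, 6 sites in both lists, 0 peaks of the WT list alone, 17 of the 3xTg list alone and 0 WT peaks with an RE1 match. The 3xTg list shortened to the length of the WT list gave 5 peaks of the WT list alone and 1 of the 3xTg list alone. Requiring 50% of each peak to overlap gave 6 of the WT list alone. A search of whole peaks raised the RE1 matches in 3xTg peaks from 1 to 3, and the same share over all peaks was not counted. The split between the lists thus depended on the limit of each list, and the q limit, the summit in place of the peak and the GENCODE annotation left these counts near the reported ones. The share over all genes did move with the annotation. With GENCODE it fell from 9.30% to 5.75% (WT) and from 14.2% to 8.85% (3xTg), and with protein-coding genes alone it rose to 10.3% and 15.7%. No paired analysis was possible because each list pools the 4 replicates of its genotype.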
